A study of Homo sapiens with 15 samples.

Results

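The response of A2058 cells, an established human melanoma line, to NP was compared with the response of the same line to the biguanides metformin and phenformin. For every gene the change with NP against DMSO was taken first, then the mean of the changes with metformin and phenformin against water, and the second was subtracted from the first. A positive difference means that the gene lay higher with NP, relative to its own vehicle, than with the biguanides relative to theirs. All 15 arrays of the series enter this difference, 3 in each of 5 groups, and nothing measured was used to choose them.

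Cells were grown in medium with serum and treated for 8 h with NP at 3 µM, metformin at 5 mM, phenformin at 50 µM, or with the vehicle alone, which was DMSO for NP and water for the biguanides. The compound is NP in the sample labels and neopetasin in the series title, whereas the study describes petasin in the same line at the same dose and time. Which of these was on the arrays cannot be read from the values, and the label NP is kept. The doses differ between the compounds, so that the effects are set side by side and say nothing of potency. The methods of the study describe the arrays of a group as biological replicates, and p-values measure the spread between them.

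Complex I passes electrons from NADH into the respiratory chain. Petasin and the biguanides are studied as inhibitors of this enzyme, and when it is blocked NADH accumulates, aspartate and other amino acids become scarce and ATP falls. Cells answer such stress through kinases that phosphorylate eIF2α, which favours translation of the transcription factor ATF4, and ATF4 then induces genes for amino acid synthesis, amino acid transport and stress signalling. A second readout of energy state is TXNIP, which is driven by the glucose-sensing pair MondoA and MLX and restrains glucose uptake. Liver X receptors (LXRs), by contrast, sense oxidized sterols and induce ABCA1, which exports cholesterol, MYLIP (IDOL), a ubiquitin ligase that removes the LDL receptor, and SREBF1, the transcription factor of fatty acid synthesis.

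RNA was labeled with 1 dye and hybridized to human expression arrays. Values are log2 intensities relative to the 75th percentile of the array, for the brightest probe of each gene among probes well above background on all 15 arrays, giving 19467 genes or unnamed transcripts (13900 had a symbol). Each difference was tested in limma, blocking on replicate number inside a slide set, and a gene was called at a Benjamini-Hochberg adjusted p of at most 0.05 and a change of at least 1.5-fold. DMSO and NP arrays shared slides 1 and 2, and water, metformin and phenformin arrays shared slides 3 and 4. Replicates 1 and 2 lay on slides 1 and 3 and replicate 3 on slides 2 and 4, so that replicate 3 and its slide cannot be told apart. No slide held both vehicles, so that vehicle and slide set cannot be told apart; the difference removes what they add equally to treated and control arrays. Between 25804 and 45044 probes per array were well above background. The water and metformin arrays of replicate 1 had the most (45044 and 44451), and the third arrays of DMSO and NP had the lowest 75th percentiles (7.18 and 7.19 on the log2 scale, against 7.81 to 8.10 elsewhere). The arrays limit the precision through their number. Of 11 melanocyte lineage markers 10 were above background on every array. Of the markers of other cell types the same held for 2 of 5 epithelial genes (KRT8 and KRT18), 2 of 5 keratinocyte genes (KRT14 and KRT10), 2 of 5 leukocyte genes (PTPRC and CD79A), 4 of 4 endothelial genes and 2 of 5 fibroblast genes (COL1A1 and LUM), while EPCAM, CDH1, KRT5 and KRT1 were above background on none. The part of these genes in the results was not tested.

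Promoter sequences are given of 4 genes that are described below and whose windows hold the marked site. Holding the site is part of how these 4 were picked, so that its presence in them is not a result. FUT1 and S100P rose with NP and lay near 0 with the biguanides, HSPA8 fell with NP, and ARRDC4 fell with all 3 compounds. Each is the 250 bases before the transcription start from RefSeq on GRCh38.p14, written 5′ to 3′ on the strand of the gene. Capitals mark TGATGNAAT, the composite site read by C/EBP and ATF factors, in FUT1 and S100P, the heat shock element (GAA, TTC and GAA in this order with NN between neighbours) in HSPA8 and the E-box CACGTG in ARRDC4, on either strand.
FUT1 (chr19:48755359-48755608, minus strand): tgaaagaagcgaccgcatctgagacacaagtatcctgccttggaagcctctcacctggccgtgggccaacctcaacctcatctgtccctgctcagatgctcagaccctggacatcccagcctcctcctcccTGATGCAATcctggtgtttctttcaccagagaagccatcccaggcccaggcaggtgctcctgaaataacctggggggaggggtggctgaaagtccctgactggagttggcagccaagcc
S100P (chr4:6693628-6693877, plus strand): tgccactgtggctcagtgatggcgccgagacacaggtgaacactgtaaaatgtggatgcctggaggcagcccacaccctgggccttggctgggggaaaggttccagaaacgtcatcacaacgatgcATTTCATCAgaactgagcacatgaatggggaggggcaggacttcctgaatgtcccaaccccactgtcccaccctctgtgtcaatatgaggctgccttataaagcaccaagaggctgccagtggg
HSPA8 (chr11:123062137-123062386, minus strand): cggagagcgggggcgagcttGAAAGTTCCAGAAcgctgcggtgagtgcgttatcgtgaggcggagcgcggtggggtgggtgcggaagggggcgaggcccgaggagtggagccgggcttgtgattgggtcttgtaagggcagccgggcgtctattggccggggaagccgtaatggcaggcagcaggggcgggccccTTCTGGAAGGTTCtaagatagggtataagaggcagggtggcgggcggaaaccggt
ARRDC4 (chr15:97960453-97960702, plus strand): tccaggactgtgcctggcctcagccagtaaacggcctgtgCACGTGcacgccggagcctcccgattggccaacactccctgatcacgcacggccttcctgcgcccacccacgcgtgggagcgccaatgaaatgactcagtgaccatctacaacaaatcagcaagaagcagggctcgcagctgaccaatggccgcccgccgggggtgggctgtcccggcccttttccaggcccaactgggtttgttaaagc
TGATGNAAT was found in 0.888% of 35116 promoter windows of this length, the heat shock element in 0.441% and CACGTG in 6.34%. Among the 12 genes named below as higher with NP, 9 had a window, and FUT1 (in 1 of its 2 windows) and S100P held TGATGNAAT. Of 18 heat shock factor targets 16 had a window and 5 of them held the heat shock element, and of the 40 ATF4 targets tested 33 had a window and none held TGATGNAAT, which says only that these letters are not in these windows. The LXR element, AGGTCA repeated after NNNN, was in 0.0142% of all windows and in none of the windows of the 12 genes. At that frequency none would be expected in so few windows, so that its absence says nothing of these genes.

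No gene passed the threshold for the difference between NP and the biguanides, 0 of 19467 tested (0% called), with a smallest adjusted p of 0.384 in limma. At an unadjusted p of at most 0.05 the same fit counted 2000 genes (10.3%), and with a difference of at least 1.5-fold besides it counted 92 higher with NP (0.473%) and 34 lower (0.175%). The methods use a paired t-test of treated against vehicle samples. Extended here to the difference, by pairing replicate numbers across the slide sets, it found 31 of 19467 genes at an unadjusted p of at most 0.05 and 1.5-fold. None passed after adjustment, and same-numbered arrays of different sets did not deviate together, so that this pairing is arbitrary. NP minus metformin and NP minus phenformin also gave 0 calls each (0% called), with 2512 (12.9%) and 1432 (7.36%) genes at an unadjusted p of at most 0.05. Differences were small over all genes, with an SD of 0.20 and a median SE of 0.12 on the log2 scale. The differences of single genes below therefore did not pass the adjustment, and are given with their intervals. These intervals are not adjusted for the number of genes tested. For genes chosen by the size or the p of their difference, the interval comes from the values that chose them. Its distance from 0 is then not a result.

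Each side on its own did give calls. NP changed 97 genes against DMSO (0.498% called), 87 up (0.447%) and 10 down (0.0514%), the mean of the biguanides changed 26 against water (0.134% called), 24 up (0.123%) and 2 down (0.0103%), metformin alone changed 16 (0.0822%) and phenformin alone 28 (0.144%). Of the 26 called for the biguanide mean, 25 were called against DMSO in the same direction, and the exception was a transcript without a symbol (ENST00000361567), with 0.29 for NP and 0.63 for the biguanides. Called with metformin or phenformin alone and not with NP were 5 transcripts without a symbol. ENST00000423222 fell with metformin by 0.69 and was at -0.25 with phenformin, not called. ENST00000590085 fell with phenformin by 0.73 and was at -0.10 with metformin, not called. Their NP effects were -0.01 and 0.16, both transcripts being chosen after their values were seen. Of the 97 NP calls 92 had an effect of the same sign with the biguanides, against 51.5% of all genes. Over all 19467 genes the 2 effects had a Pearson r of 0.221 and a Spearman rho of 0.0848. A call in 1 comparison and not in the other does not show a difference, and the test of the difference called none of them. Without replicate 2 of both slide sets 0 genes were called for NP and 4 for the biguanides, and the arrays of replicate 2 of DMSO and NP alone moved the NP count to 40 when left out.

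**Figure D1:**
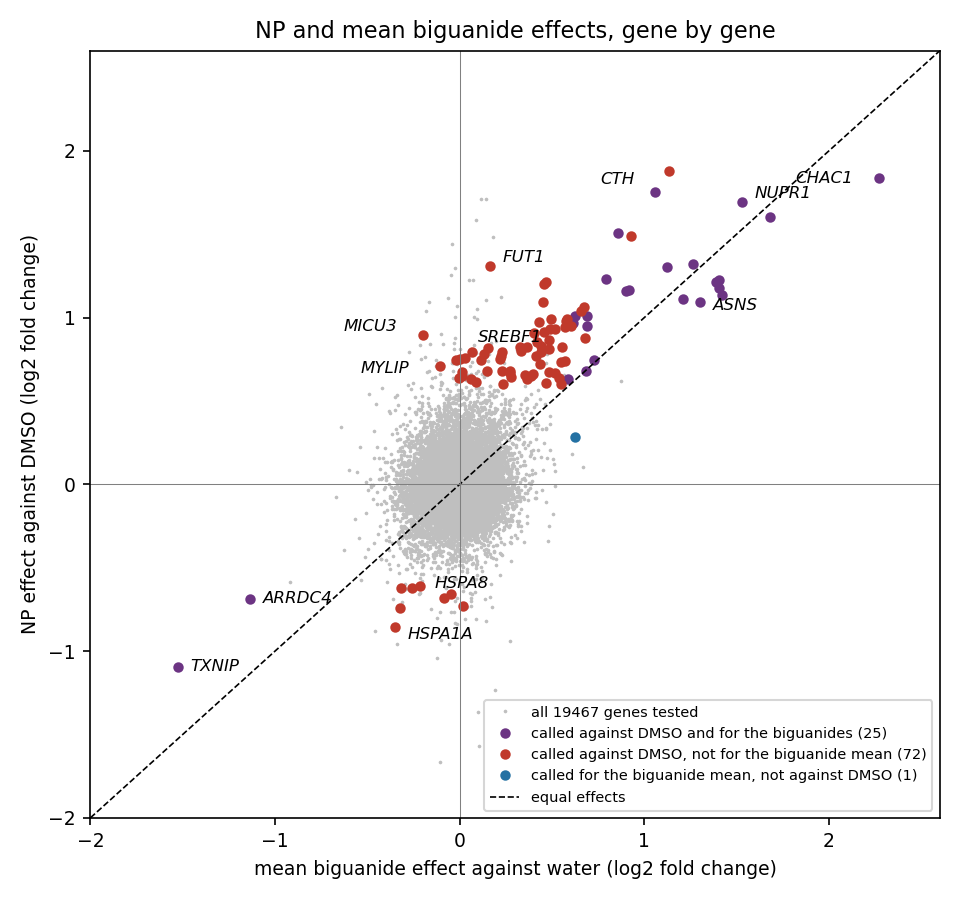
Effect of NP against DMSO (vertical axis) and mean effect of metformin and phenformin against water (horizontal axis), both as log2 fold changes, for 19467 genes. Genes called in both comparisons (25) lie on both sides of the dashed line of equal effects, with CTH above it and CHAC1 below it, and FUT1, MICU3, MYLIP and SREBF1 lie near 0 on the horizontal axis.

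SREBF1 and MYLIP, both induced by LXRs, were among the 12 genes taken as higher with NP. SREBF1 lay at 5.67, 5.62 and 6.28 on the DMSO arrays and at 6.51, 6.39 and 6.92 on the NP arrays of the same numbers. With water it was at 5.47, 5.57 and 5.80, with metformin at 5.55, 5.49 and 5.76 and with phenformin at 5.74, 5.64 and 5.69. All 3 NP arrays lay above all other arrays. SREBF1 rose by 0.76 ± 0.08 (log2, SE, adjusted p = 0.0039) with NP, or 1.69-fold, and its biguanide effect was 0.03, so that the difference was 0.72 (95% interval 0.49 to 0.96, adjusted p = 0.38). A second, dimmer SREBF1 probe gave a difference of -0.14 and an NP effect of 0.05, so that the probes of this gene disagree. With normexp background correction the brighter probe gave the only call of the whole difference, 0.80 with an adjusted p of 0.0498.

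MYLIP was at 1.68, 1.74 and 2.53 with DMSO and at 2.43, 2.40 and 3.24 with NP. The third DMSO array lay above the first and second NP arrays, so that the levels overlap, while the 3 pairs rose by 0.75, 0.67 and 0.70. Its changes with metformin were -0.02, -0.17 and -0.21 and with phenformin 0.17, -0.01 and -0.39. The NP effect of 0.71 was called (adjusted p = 0.012), and the difference from the biguanides was 0.81 (0.53 to 1.10, adjusted p = 0.38).

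ABCA1 was too dim for the test over all 15 arrays. Its probe was well above background on 3 of 3 NP arrays and on 0 of 3 DMSO arrays, and on 2 water, 1 metformin and 1 phenformin array. ABCA1 is described because of these flags, which are thus not a test. The NP arrays read -3.50, -2.63 and -1.88 and the DMSO arrays -5.69, -5.71 and -4.35. The NP mean was 2.13-fold above a limit that takes, on each DMSO array, the lowest signal of any probe well above background. Probes below background can read above this limit, so that it is not a strict bound. With water it read -3.94, -4.74 and -4.34, with metformin -3.13, -4.90 and -4.26 and with phenformin -4.22, -4.43 and -4.70, mostly below background, and no test of this gene is given. LPCAT3, which remodels membrane phospholipids, had a difference of 0.26 (0.05 to 0.46). ABCG1, the partner of ABCA1 in cholesterol export, was well above background on no DMSO and no NP array. NR1H2, which encodes LXRβ, went the other way, with a difference of -0.46 (-0.74 to -0.18) made of -0.18 with NP and 0.28 with the biguanides. Over the 5 LXR list genes tested, 2 had an unadjusted p of at most 0.05 upward (4.3% of all genes) and 1 downward (5.97% of all genes).

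Single sterol and fatty acid synthesis genes other than SREBF1 are not reported here. Of 30 tested, 7 had a difference above 0 (47.9% of all genes), the median was -0.10 against -0.01 over all genes, and 6 were lower (5.97% of all genes) and 1 higher (4.3%) at an unadjusted p of at most 0.05. The median difference was -0.032 without replicate 1 of both slide sets, -0.052 without replicate 1 of the water set and -0.067 without replicate 3 of DMSO and NP. The group median was -0.17 with NP, -0.06 with metformin and 0.01 with phenformin. G0S2, an inhibitor of the lipase that breaks down stored triglyceride, rose in the NP pairs by 0.37, 1.11 and 0.78 and was close to 0 with the biguanides (0.00), a difference of 0.75 (0.40 to 1.11).

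**Figure D2:**
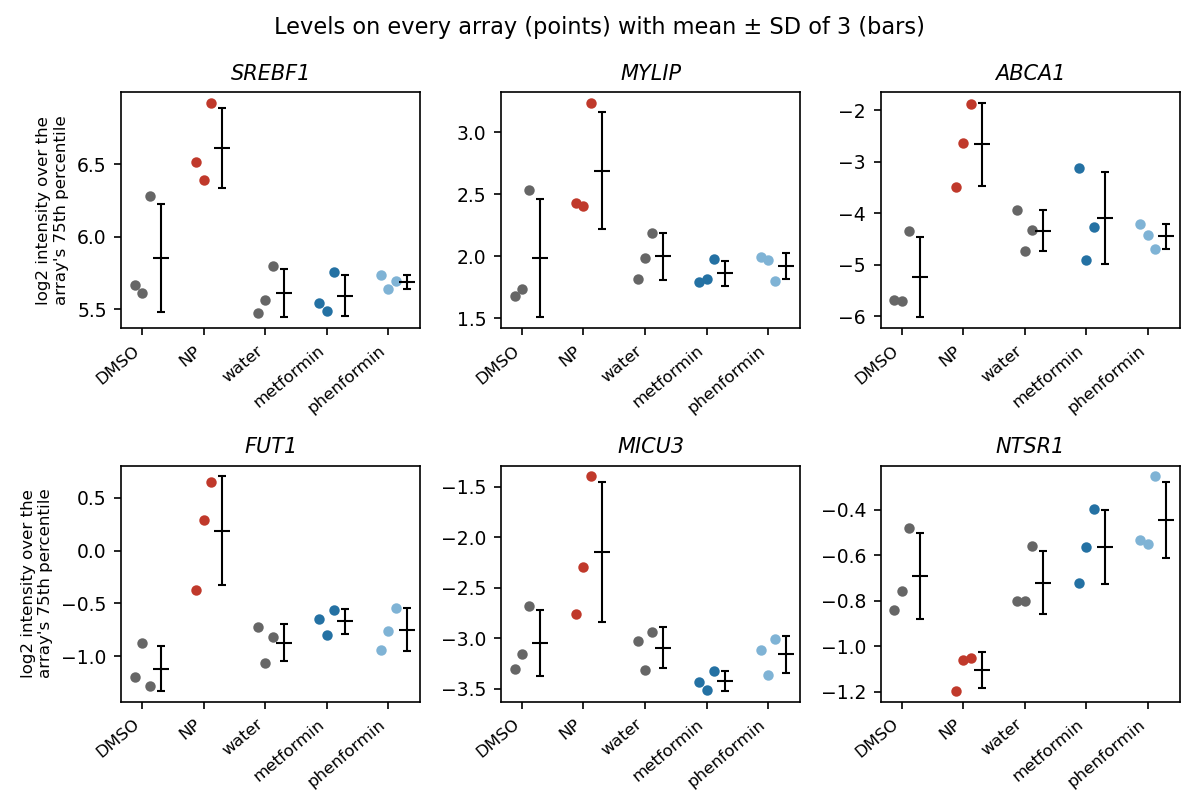
Log2 intensity minus the array's 75th percentile on each of the 15 arrays (points) with mean ± SD of 3 (bars) for SREBF1, MYLIP, ABCA1, FUT1, MICU3 and NTSR1, on axes that differ between panels. The NP arrays of SREBF1 and FUT1 lie above all other arrays, the first NP array of MICU3 lies just below the third DMSO array, those of NTSR1 lie below all others, and ABCA1 is below background on the 3 DMSO arrays.

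The 12 genes of each direction were taken by their unadjusted p among genes with a symbol, a difference of at least 1.5-fold and NP pairs that all lay on one side of the biguanide values, so that the separation is how they were chosen; over all genes the NP pairs lay above the biguanide values in 1246 genes (6.4%) and below in 2228 (11.4%). MICU3, a regulator of the mitochondrial calcium uniporter, had the smallest p. It lay at -3.30, -3.16 and -2.68 with DMSO and at -2.76, -2.29 and -1.40 with NP, and the first NP array lay just below the third DMSO array. In pairs it rose by 0.54, 0.86 and 1.28 with NP and moved by -0.41, -0.20 and -0.39 with metformin and -0.09, -0.04 and -0.07 with phenformin. The difference was 1.10 (0.75 to 1.44, unadjusted p = 4.4e-05, adjusted p = 0.38). It is a dim gene, and with normexp background correction the difference was 0.37.

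FUT1, the fucosyltransferase that makes the H blood group antigen, had the largest difference of the 12. Its DMSO arrays read -1.20, -0.88 and -1.28 and its NP arrays -0.37, 0.29 and 0.65. All 3 NP arrays lay above all 12 others, the metformin arrays reading -0.65, -0.80 and -0.56 and the phenformin arrays -0.95, -0.77 and -0.54. FUT1 rose 2.48-fold with NP (log2 1.31, adjusted p = 0.012) and was at 0.16 with the biguanides, a difference of 1.15 (0.62 to 1.68). S100P, a small calcium-binding protein, rose by 0.87, 0.73 and 0.84 in the NP pairs against 0.15 for the biguanides, a difference of 0.66 (0.41 to 0.92). Its DMSO level ranged from 1.51 to 3.59, far wider than the pair effects. SLC22A15, a transporter of organic ions, rose by 0.78 against 0.13, with a difference of 0.65.

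RHOT1 (Miro1), which ties mitochondria to their motors, and SGCD, δ-sarcoglycan, were called for NP (0.79 and 0.75) and lay at 0.07 and -0.02 with the biguanides, but their second probes gave differences of 0.12 and -0.10, so that the probes disagree. The remaining 3 of the 12 called for NP were IGFN1 and SNORD116-27 (0.64 and 0.65, both within 0.02 of 0 with the biguanides) and G0S2, described above. SNORD116-27 belongs to a family of near-identical small nucleolar RNAs, and its value is uncertain. IGFN1 and SNORD116-27 are dim (mean levels -1.63 and -2.08), and over the alternative settings their differences shrank to 0.31 and 0.26. PLSCR4, a phospholipid scramblase, was not called for NP (0.40) and had a difference of 0.62 with a biguanide effect of -0.21. Genes called for NP with a biguanide effect under 0.2 numbered 14 with a symbol, a limit chosen after the values were seen, and besides those above they were SCRG1 (0.75), IFRD1 (0.68) and ODAD4 (0.61). Among these 14 the DMSO mean minus the water mean ran from -1.13 in SCRG1 and -1.12 in IGFN1 to 0.24 in SREBF1. The part of this baseline in the differences was not tested.

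Genes at least 1.5-fold lower with NP at an unadjusted p of at most 0.05 were fewer than those higher (34 against 92), whereas without the limit on size more were lower (1163 against 837). NTSR1, the neurotensin receptor, lay at -0.84, -0.76 and -0.48 with DMSO and at -1.20, -1.06 and -1.05 with NP, below every other array. It moved by -0.41 with NP (adjusted p = 0.036, under 1.5-fold and so not called) and by 0.22 with the biguanides, positive in all 6 biguanide pairs, and the difference was -0.63 (-0.84 to -0.42, adjusted p = 0.38). CILP2, a cartilage matrix protein, was at -0.58 with NP and 0.12 with the biguanides. The antisense transcript CIRBP-AS1 and HUS1B, a relative of the checkpoint clamp protein HUS1, were called as lower with NP (-0.68 and -0.66) and were at -0.08 and -0.04 with the biguanides. KDM6B, a demethylase of histone H3, had the largest negative difference (-1.21, interval -1.88 to -0.53), which rests mainly on the second pair, where NP minus DMSO was -1.86 against -0.52 and -0.44 in the others. The other 7 were SNORD37, SHISAL1, MDGA1, ZMYND10, ZFX, FER1L4 and INTS5, with differences from -0.91 to -0.59 and none called for NP. CILP2, SNORD37, SHISAL1, KDM6B, MDGA1, ZMYND10, ZFX and FER1L4 are dim (mean levels from -2.23 to -1.98). Over the alternative settings the difference shrank to -0.31 in CILP2, -0.31 in HUS1B, -0.62 in KDM6B and -0.18 in ZMYND10. In NTSR1 it shrank to -0.51.

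**Figure D3:**
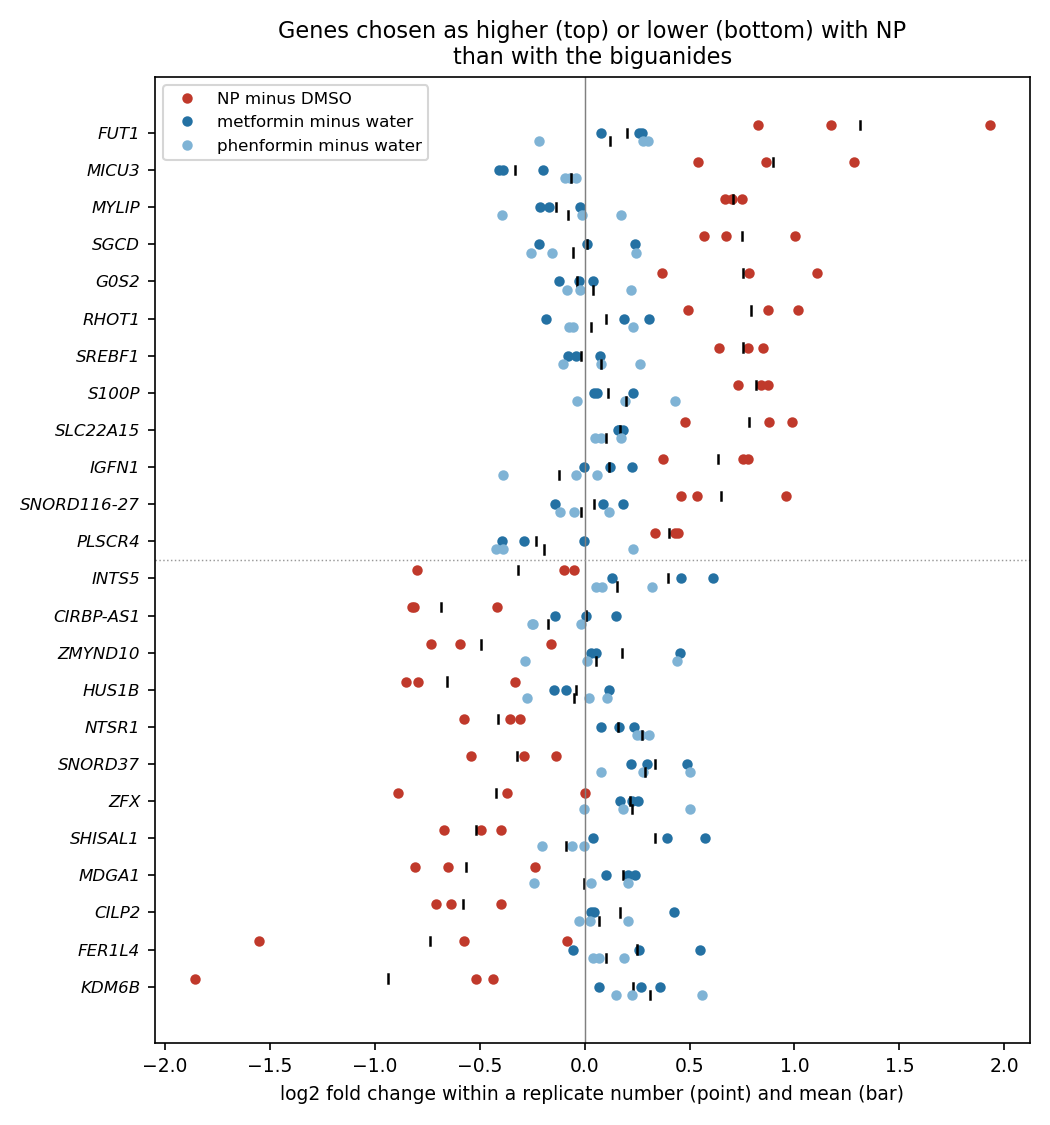
Log2 fold change within each replicate number (points) and mean (bars) for NP minus DMSO, metformin minus water and phenformin minus water, for the 12 genes taken as higher and the 12 taken as lower with NP. The NP points lie to the right of the mean of the biguanide points in the upper genes and to the left in the lower genes, which is how they were chosen, and the spread of the 3 NP points of KDM6B, FER1L4 and FUT1 is the widest.

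ATF4 targets made up 14 of the 25 genes called in both comparisons. Of 40 tested, 23 were called for NP, all upward (0.447% of all genes), and 14 for the biguanides, all upward (0.123% of all genes) and all among the 23. The median change was 0.76 with NP, 0.37 with metformin and 0.52 with phenformin. The difference was above 0 in 33 of 40 (47.9% of all genes), with a median of 0.24 against -0.01 over all genes, and 13 were higher at an unadjusted p of at most 0.05 (4.3% of all genes) and 0 lower (5.97%). The median difference was 0.11 without replicate 2 of both slide sets and 0.14 without replicate 2 of DMSO and NP alone. Without replicate 2 of both sets 25 of 40 were above 0, a setting for which the share of all genes is not given. Genes of this list named below other than CTH, MTHFD2, ASS1, ASNS, TRIB3 and DDIT3 were chosen after their values were seen.

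Enzymes and transporters of the list ranged from CTH to CHAC1, described further on. CTH, which makes cysteine from cystathionine, rose in the NP pairs by 1.30, 2.16 and 1.79, in the metformin pairs by 0.84, 0.95 and 0.91 and in the phenformin pairs by 1.31, 1.25 and 1.09. The NP change was 3.37-fold and the biguanide change 2.08-fold, both called, with a difference of 0.70 (0.30 to 1.09, unadjusted p = 0.0031, adjusted p = 0.40). MTHFD2, the mitochondrial folate enzyme, was called for NP (0.82) and not for the biguanides (0.33), with a difference of 0.49 (0.22 to 0.76). ASS1, which joins citrulline and aspartate, gave 0.80 and 0.33 with a difference of 0.47 (0.23 to 0.71), and its second probe 0.37. PCK2, PSAT1, GPT2 and the cystine transporter SLC7A11 had differences between 0.33 and 0.39. CBS, the enzyme before CTH in the same pathway, rose alike on both sides (0.68 and 0.68), with a difference of 0.00 and an interval from -0.31 to 0.30.

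Among secreted factors of the list, STC2 rose by 1.23 with NP and 0.79 with the biguanides. GDF15 rose by 0.93 with NP and was at 0.51 with the biguanides, not called. VEGFA rose by 1.01 and 0.69, from unequal starting levels. Its mean was 1.10 with DMSO and 2.11 with NP, against 2.155 with water, 2.66 with metformin and 3.03 with phenformin. INHBE, an inhibin subunit below the filter, was above background on 1 DMSO array, 3 NP, 2 water, 3 metformin and 3 phenformin arrays. It read -3.84, -3.86 and -4.05 with DMSO and -2.06, -1.46 and -0.98 with NP, and no test of it is given.

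Regulators split. TRIB3, a pseudokinase that feeds back on ATF4, rose by 1.01 with NP and 0.62 with the biguanides, both called, with a difference of 0.38 (0.08 to 0.69). DDIT3 (CHOP) rose by 1.04 with NP and was not called with the biguanides at 0.66, a difference of 0.38 (-0.01 to 0.77). Its mean level was 0.04 with DMSO and 0.40 with water, and 1.08 with NP, 1.08 with metformin and 1.03 with phenformin. ATF4 itself, which was not on the list, gave 0.60 and 0.55. NUPR1 and JDP2 rose by 1.69 and 1.32 with NP and by 1.53 and 1.26 with the biguanides, and their differences were 0.16 and 0.06 with intervals that include 0.

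CHAC1, SLC6A9 and ASNS had the larger change with the biguanides. CHAC1, which degrades glutathione, rose by 1.83 with NP and by 2.27 with the biguanides, SLC6A9, a glycine transporter, by 1.18 and 1.41, and ASNS, asparagine synthetase, by 1.09 and 1.30. ASNS rose in the NP pairs by 1.23, 1.35 and 0.69, in the metformin pairs by 1.05, 1.09 and 1.18 and in the phenformin pairs by 1.66, 1.43 and 1.41. All of these differences had intervals that include 0 (ASNS -0.57 to 0.14). The starting levels were unequal, since the DMSO arrays lay above the water arrays by 1.57 in ASNS, 1.33 in SLC6A9 and 1.16 in CHAC1. They also lay above by 1.42 in SLC7A11, 1.12 in NUPR1 and 1.08 in JDP2, whose differences were positive (0.36, 0.16 and 0.06). Over the list the DMSO mean was above the water mean in 30 of 40 genes (45.9% of all genes), with a median of 0.40 against -0.04 over all genes, and by more than 1 in 6 of 40, against 106 of 19467. The part of this baseline in the differences was not tested.

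**Figure D4:**
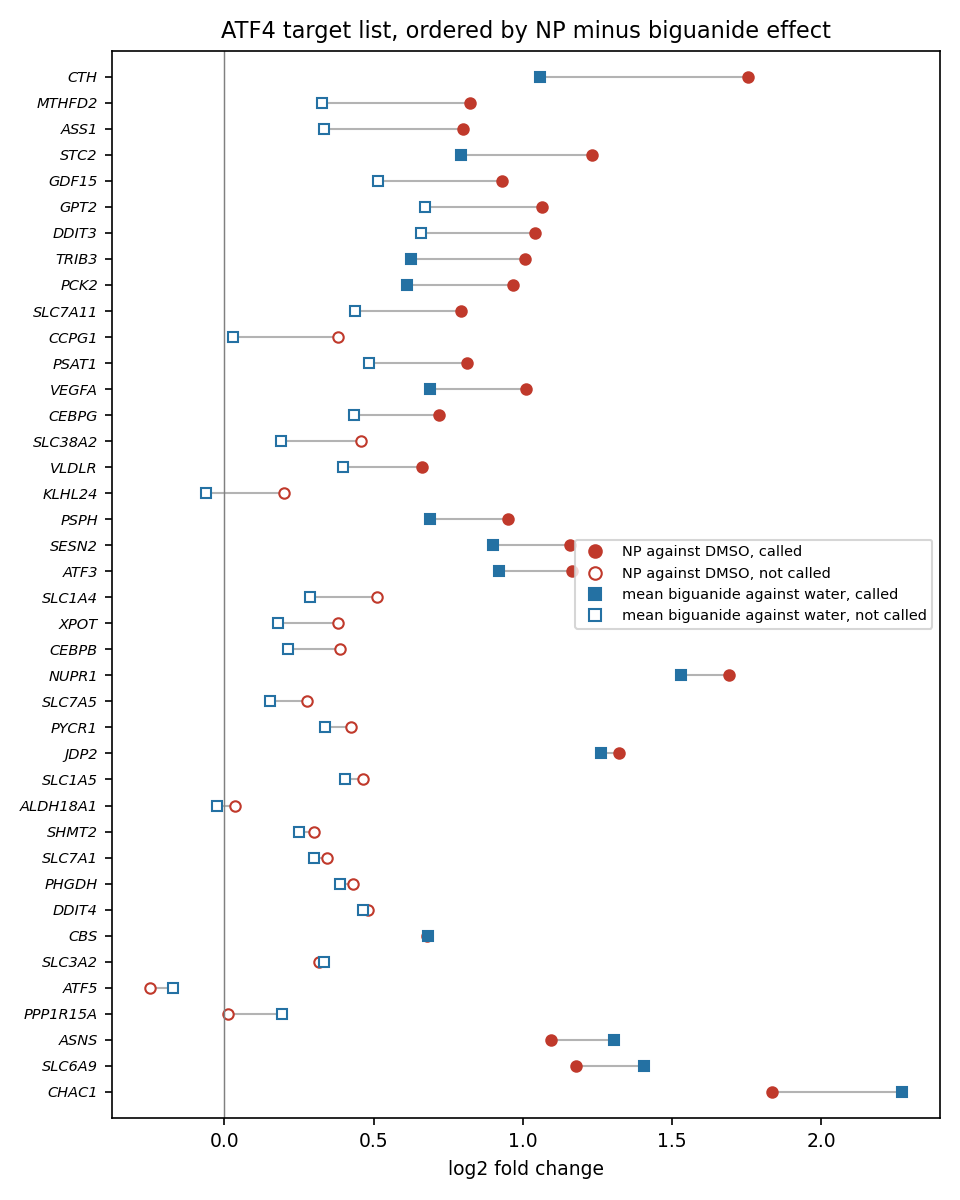
Log2 fold change with NP against DMSO (circles) and mean of metformin and phenformin against water (squares) for the 40 ATF4 targets tested, ordered by the difference, with filled symbols for called changes. In 33 of 40 genes the circle lies to the right of the square, and ASNS, SLC6A9 and CHAC1 at the bottom have the square to the right.

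HSPA5 (BiP), the main chaperone of the ER lumen, had effects of -0.10 with NP and -0.14 with the biguanides, a difference of 0.04 (-0.21 to 0.29), and of 23 ER chaperone and ERAD genes 1 was called for NP (0.498% of all genes), the transcription factor XBP1 (0.65), which gave 0.38 with the biguanides. Of 18 heat shock factor targets tested, 1 had a difference above 0 (47.9% of all genes), the median was -0.18, and 5 were lower at an unadjusted p of at most 0.05 (5.97% of all genes) and 0 higher (4.3%). Without replicate 1 of both slide sets 5 were above 0, and with normexp 6, with medians of -0.16 and -0.15. The share of all genes above 0 is not given for these settings. Without replicate 1 the ribosomal proteins above 0 also moved, from 31 to 53 of 72. HSPA8, the constitutive HSC70, read 6.70, 6.63 and 6.61 with DMSO and 6.23, 6.16 and 5.72 with NP, which did not overlap. It fell by 0.61 with NP (adjusted p = 0.017) against -0.21 with the biguanides, a difference of -0.40 (-0.66 to -0.13). HSPA1A fell by 0.85 with NP (adjusted p = 0.033), by 0.70, 0.48 and 1.39 in the pairs, and was at -0.35 with the biguanides. The difference of HSPA1A was -0.50 (-0.93 to -0.07), and -0.24 without replicate 3 of DMSO and NP. HSPA1B, a near-identical copy whose RNA can bind the same probes, gave -0.71 and -0.31. The DMSO mean minus the water mean was -0.54 in HSPA8 and 0.04 in HSPA1A. Over the list the DMSO mean lay above the water mean in 5 of 18 genes, against 45.9% of all genes. The part of this baseline in the differences was not tested. HSP90AB1, FKBP4 and CRYAB, named after their values were seen, had differences from -0.25 to -0.24.

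TXNIP and its relative ARRDC4, an arrestin-domain gene of the same control, were the genes that fell furthest with the biguanides, and they fell with NP too. TXNIP read 1.38, 1.47 and 0.32 with DMSO and 0.66, 0.69 and -1.47 with NP. With water it read 1.85, 2.16 and 2.09, with metformin 0.33, 0.46 and 0.49 and with phenformin 0.58, 0.65 and 0.55. The biguanide arrays lay below all water arrays, and the third DMSO array lay below the first 2 NP arrays. TXNIP fell by 1.10 with NP and by 1.53 with the biguanides, both called, with a difference of 0.43 (-0.08 to 0.94). ARRDC4 fell by 0.69 and 1.13, both called, with a difference of 0.45 (0.17 to 0.73). ARRDC3, whose name it shares, gave 0.27 and 0.02 and was called in neither. The DMSO mean minus the water mean was -0.98 in TXNIP and -0.41 in ARRDC4, and the part of this baseline was not tested.

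Of 20 glycolysis and lactate export genes tested, 4 had a difference above 0 (47.9% of all genes), the median was -0.11, and 4 were lower at an unadjusted p of at most 0.05 (5.97% of all genes). The median was -0.16 without replicate 2 and -0.07 without replicate 1 of both slide sets. The DMSO mean lay above the water mean in 6 of these 20 genes, against 45.9% of all genes. The part of this baseline was not tested. PKM, the last enzyme of glycolysis to make ATP, was at -0.08 with NP and 0.23 with the biguanides, ALDOC at -0.13 and 0.17 and ENO1 at -0.12 and 0.14, and none of these genes was called on either side. The complex I list had a median difference of -0.02 over 37 complex I subunits, no subunit at an unadjusted p of at most 0.05 and none called on either side. The 38 subunits of complexes II to V, 72 ribosomal proteins and 31 proteasome subunits had medians between -0.02 and -0.01. Without replicate 1 of both slide sets these medians were 0.062, 0.033 and 0.066 in the same order.

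Of 16 NF-κB cytokine and feedback genes 6 were higher at an unadjusted p of at most 0.05 (4.3% of all genes) and 0 lower (5.97%), with a median of 0.09 that was 0.21 without replicate 1 and 0.054 without replicate 2 of both slide sets, 0.20 without replicate 1 of the water set and 0.042 without its replicate 3, and none was called on either side. CXCL8 (interleukin-8) gave 0.16 with NP and -0.44 with the biguanides, a difference of 0.60 (0.25 to 0.95). Its DMSO level was 3.72, 3.71 and 0.39, so that the third DMSO array, the only DMSO array on slide 2, stood apart in this gene. The DMSO mean lay above the water mean in 2 of these 16 genes, against 45.9% of all genes, and the part of this baseline was not tested. IL6 and IL1B had differences of 0.52 each. Of 11 YAP and TGF-β targets 10 had a difference above 0 (47.9% of all genes), with a median of 0.20, which was 0.31 without replicate 1 and 0.07 without replicate 3 of both slide sets, 0.09 without replicate 3 of DMSO and NP and 0.08 without that of the water set. AJUBA, an adaptor of the Hippo pathway, was called for NP (0.65) and was at 0.28 with the biguanides, and CCN2 (CTGF) was at 0.42 and 0.02. KLF4, a transcription factor of the immediate early list, was called for NP (0.91) and not for the biguanides (0.46), while BTG2 and JUNB of the same list had differences of -0.43 and -0.46.

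The NRF2 targets, aminoacyl-tRNA synthetases, hexosamine and N-glycan precursor genes and immediate early genes had median differences between 0.00 and 0.01 in size, with GARS1, named after its value was seen, the only synthetase called for NP (0.61). The lists of mitochondrial chaperones and proteases, metallothioneins, HIF1 targets, autophagy and lysosome, both cell cycle lists, p53 targets and interferon-stimulated genes had medians from -0.07 to -0.02. Some of these medians changed sign when arrays were left out. Without replicate 1 of both slide sets they were 0.091 for G1/S and DNA replication, 0.056 for p53 targets and 0.046 for autophagy and lysosome. Interferon-stimulated genes had 0.043 without replicate 3 of both sets. ERK pathway output had a median of -0.10 with 4 of 16 above 0 (47.9% of all genes), ETV4 being lowest at -0.35, and the median was -0.16 without replicate 2, -0.032 without replicate 3 and -0.025 without replicate 3 of DMSO and NP alone. Of 3 AHR targets tested, with a median of 0.10, none had an unadjusted p of at most 0.05. No gene of these lists was called for the difference.

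**Figure D5:**
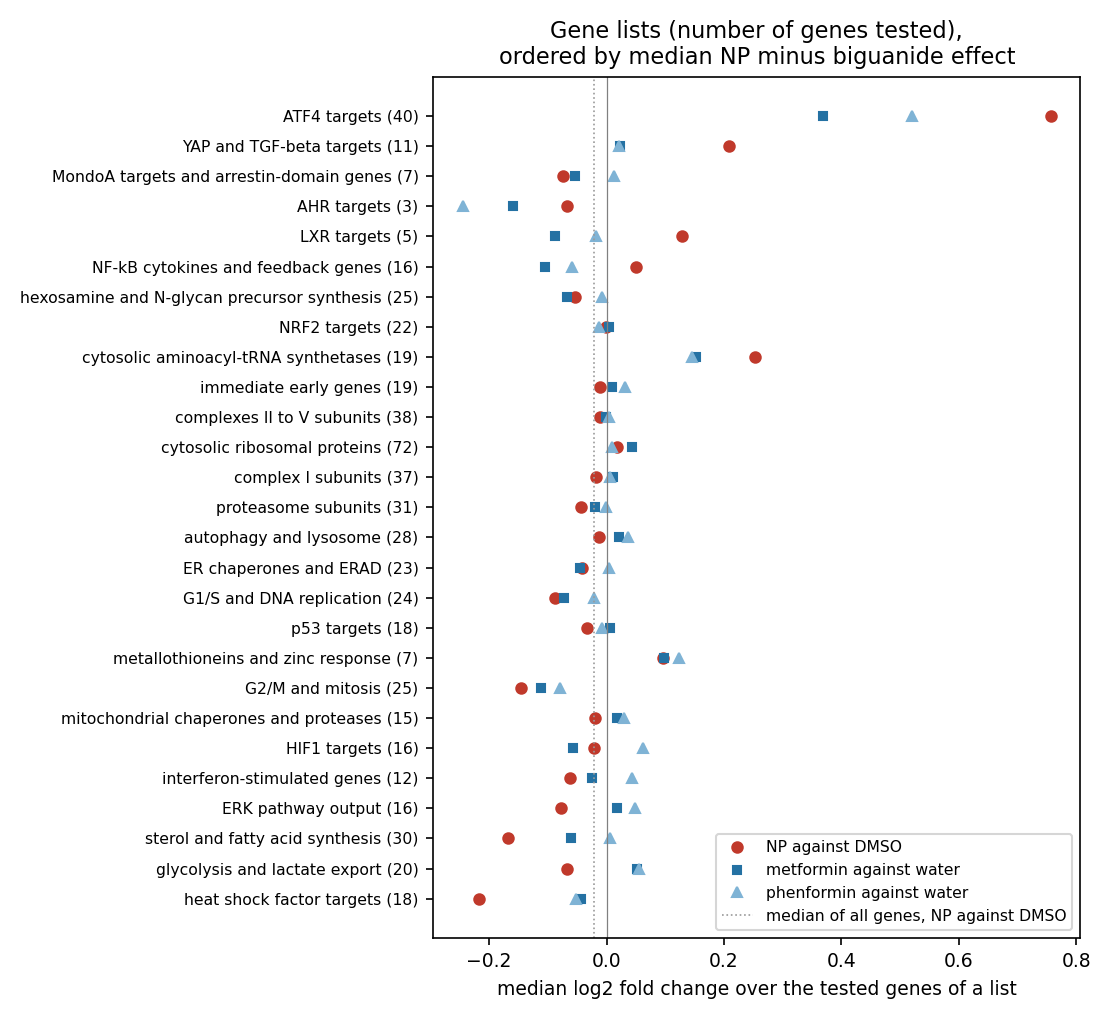
Median log2 fold change of each gene list with NP against DMSO (circles), metformin against water (squares) and phenformin against water (triangles), with the number of genes tested in brackets and lists ordered by the median difference. ATF4 targets lie furthest right for all 3 compounds with NP at 0.76, and heat shock factor targets and sterol and fatty acid synthesis genes lie furthest left for NP.

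The biguanides were also taken singly. Against metformin alone the difference of MICU3 was 1.23 and against phenformin alone 0.96, those of SREBF1 were 0.77 and 0.68, and those of NTSR1 -0.57 and -0.69. Metformin and phenformin were given at different doses and are set side by side only. CTH rose by 0.90 and 1.22 and CHAC1 by 2.14 and 2.40 with metformin and phenformin, and TXNIP fell by 1.61 and 1.44.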

How the data were processed

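Spot intensities deposited by the authors (Agilent Feature Extraction, background-subtracted and detrended within an array, version 9.1 per the labels and a later one per the file headers) were used, with the deposited log2 table of the series, scaled to the 75th percentile and floored at 4, as an alternative. Control spots were removed, outlier spots set to missing, spots of a probe averaged and the log2 of the 75th percentile of the array subtracted. Of 58201 probes, 23917 were well above background and complete on all 15 arrays. RefSeq accessions gave a symbol to 31104 of 33080 probes that carry one, and the brightest probe represented a gene. In R 4.3.3 with limma 3.58.1, 6 blocks (replicate number within slide set) and 3 compound terms were fitted, which left 6 residual degrees of freedom, with two-sided tests and Benjamini-Hochberg adjustment over all genes. Same-numbered arrays of a slide set deviated together (r from 0.326 to 0.844 over 12 pairs), so that the numbers pair them, and those of different sets did not (r from -0.256 to 0.142). Named genes were the 12 of each direction, from each list the 3 members with the largest absolute difference and any called for it (none of the sterol and fatty acid list), and ASNS, TRIB3, DDIT3 and HSPA5. The members, lists and rule were chosen with earlier results of these data known. The fit was tested on simulated data.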

Additional observations from a re-analysis of the deposited data

Results flagged for a closer look

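Probes outside the test over all arrays were examined by their background flags. On 19 probes the signal was well above background on all 3 NP arrays and on no DMSO array, and the reverse held for 1 probe. ABCA1, described above, is among the 19, as is a second, dimmer probe of SLC6A9. In the other slide set 4 probes had the pattern for metformin over water and 29 the reverse, and 5 had it for phenformin over water and 108 the reverse. The water arrays of replicates 1 and 2 had more probes above background than the phenformin arrays of the same numbers (45044 and 36841 against 34984 and 34607), and the part of this in the counts was not tested.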

How the results depend on the processing

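The difference between NP and the biguanides gave 0 calls under every alternative except normexp background correction (1, SREBF1), the unadjusted paired test extended across slide sets (31) and the fit without replicate 1 of DMSO and NP (1, the transcript lnc-TSEN15-1:1), a range of 0 to 1 over the fits that leave out a replicate. NP minus metformin gave 1 call with normexp, 97 with the unadjusted paired test and 0 to 2 without a replicate, and NP minus phenformin 0, 33 and 0 to 1. Counts for NP, the biguanide mean, metformin and phenformin against their vehicles were 97, 26, 16 and 28. With no replicate block they were 8, 0, 0 and 0, with a block of 3 levels over all arrays 26, 11, 0 and 6, with probes above background in at least 1 group 52, 12, 2 and 9, and with no filter or the adjusted paired test 0 each. The unadjusted paired test gave 41 for metformin and 46 for phenformin, and the variance trend 26 for metformin. Leaving out a replicate gave 0 to 90 for NP, 1 to 29 for the biguanides, 0 to 17 for metformin and 0 to 32 for phenformin. NP counts without replicates 1, 2 and 3 of both sets were 55, 0 and 11. The causes were not tested beyond the fewer arrays in each fit.

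Named differences that changed sign when arrays were left out are given by their range over those fits. They ran from -0.032 to 0.42 in CYP1A1, -0.037 to 0.24 in TIPARP, -0.23 to 0.20 in CYP1A2, -0.048 to 0.54 in ARRDC3, -0.063 to 0.34 in NDUFB5, -0.0024 to 0.49 in PSMD14, -0.034 to 0.31 in CCNE2 and -0.071 to 0.18 in HSPA5.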
